A study of Mus musculus with 4 samples.

Results

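Cytosolic ribosomal protein genes are described here in cultured mouse oesophageal cells. They were taken as every gene of the deposited table whose symbol follows the Rpl or Rps number pattern, plus Rplp0, Rplp1, Rplp2 and Rpsa, without S6 kinase genes and names that carry -ps. The rule found 85 of 24444 genes, 52 of the large and 33 of the small subunit. Poly(A) RNA was sequenced from 2 libraries of the group labelled Nrf2-HET and 2 libraries of the group labelled Nrf2-WT. The Nrf2-HET cells came from C57BL/6J mice made by CRISPR/Cas9 microinjection with a cassette labelled Nfe2l2-E79Q. The Nrf2-WT cells came from the same strain, with neither treatment nor cassette. HET is read as heterozygous. The series title calls the allele conditional, and the labels do not say whether or how it was switched on in these cells. Nfe2l2 encodes NRF2, the transcription factor of antioxidant genes, and E79Q changes a residue of the segment that KEAP1 binds. The labels give no age, sex or passage, and do not say whether replicates came from separate animals, so the p-values measure the spread between these libraries only. The columns of both groups carry the word SV40, which the labels do not explain. The series' design text speaks of another experiment in human cells, and the sample labels were followed.

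Ribosomal proteins coat the ribosomal RNA of both subunits, and most are present as a single copy. Their messenger RNAs are among the most abundant of dividing cells and usually begin with a C followed by a run of pyrimidines, the 5′ terminal oligopyrimidine tract, through which LARP1 and mTORC1 control their translation. MYC is a known activator of ribosomal protein and ribosome assembly genes.

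Because of the pyrimidine tract, the first bases of the transcripts are shown for members that the results turn on. Each window runs from 15 bases before the RefSeq start to 15 bases from it on, 5′ to 3′ on the gene's strand (GRCm38.p6). Capitals mark a C followed by at least 4 C or T that begins within 10 bases of the start. The first 6 genes, a selection from the 10 largest rises, were called higher in Nrf2-HET cells. Of these, 4 have a marked tract and 2 (Rpl22 and Rps19) have none at the start shown but a tract at another listed start. Among the 10 largest rises but not shown are Rps3, with no tract at any listed start, and Rps23, with a tract. The last 3 were called lower (Rplp0 with the opposite sign after quantile normalisation).
Rps21 (chr2:180257364-180257393, plus strand): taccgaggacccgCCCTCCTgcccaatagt
Rps12 (chr10:23787195-23787224, minus strand): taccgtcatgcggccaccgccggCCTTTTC
Rps15a (chr7:118116133-118116162, minus strand): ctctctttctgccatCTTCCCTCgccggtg
Rps27 (chr3:90213634-90213663, minus strand): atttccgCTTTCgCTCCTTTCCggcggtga
Rpl22 (chr4:152325711-152325740, plus strand): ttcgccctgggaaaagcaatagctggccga
Rps19 (chr7:24884577-24884606, plus strand): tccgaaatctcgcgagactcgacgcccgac
Rpl41 (chr10:128549154-128549183, minus strand): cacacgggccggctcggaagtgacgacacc
Rpl7l1 (chr17:46782642-46782671, minus strand): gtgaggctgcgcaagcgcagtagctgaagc
Rplp0 (chr5:115559452-115559481, plus strand): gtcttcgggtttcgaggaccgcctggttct
The RefSeq start lay 0 to 3 bases from the GENCODE M21 start for Rps21, Rps27, Rpl7l1 and Rplp0. It lay 15 bases away for Rpl41, 41 for Rps15a, 66 for Rps12, 127 for Rpl22 and 221 for Rps19, so the place of a tract relative to the start is less sure in those genes.

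As a set, the ribosomal protein genes lay slightly higher in Nrf2-HET than in Nrf2-WT cells. Of 85 members, 81 were high enough to test, and 30 were called higher and 4 lower (limma with a replicate block, Benjamini-Hochberg adjusted p under 0.05 over 10857 genes). That is 37.0% higher and 4.94% lower, against 21.5% called higher and 18.9% called lower among all genes tested (40.4% called in either direction). Without the mean-variance trend, 16 members were called higher (19.8%, against 19.7% of all genes) and 2 lower (2.47%, against 18.1%; 37.9% of all genes in either direction), so the higher share of called rises was not seen in that fit. The median difference, Nrf2-HET minus Nrf2-WT on the deposited log2-like scale, was 0.08 over the members and 0.01 over all genes. The differences were small, with the middle of the members (the interquartile range) between 0.03 and 0.15 and the whole range between -0.31 and 0.27. In normalised counts the called rises came to between 9.2% and 22.0%, and the called falls to between -20.1% and -8.2%. The other 290 genes above the members' lower-quartile level of 12.48 were called in both directions at similar rates, 33.1% higher and 28.6% lower, with a median of 0.02.

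Together the members took 5.52% and 5.46% of all normalised counts in the Nrf2-HET libraries, against 5.29% and 5.33% in the Nrf2-WT libraries. Their summed normalised counts were 0.753 and 0.761 M in Nrf2-HET, against 0.726 and 0.718 M in Nrf2-WT, a mean change of 4.9%. Neither Nrf2-HET library overlapped the Nrf2-WT libraries in share or sum, both of which come from values centred within each gene by replicate number. All 4 libraries held between 13.5 and 13.9 M normalised counts. In a bulk sample, fewer cells of a type and less RNA per cell cannot be told apart.

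Among small subunit genes the largest rise was in Rps21, a small protein found only in eukaryotic ribosomes. Its values were 12.63 and 12.72 in the Nrf2-HET libraries, against 12.44 and 12.36 in the Nrf2-WT libraries. Both Nrf2-HET libraries were above both Nrf2-WT libraries, by 0.27 ± 0.05 (SE, n = 2 pairs, limma adjusted p = 0.000359). In these values, centred by replicate number, groups that do not overlap are common, at 79.2% of all genes tested (41.1% in this direction). Rps12, a protein of the small subunit's beak, had 13.61 and 13.61 in Nrf2-HET, against 13.38 and 13.38 in Nrf2-WT. Its rise was 0.23 ± 0.04 (limma adjusted p = 0.000484), 0.24 in the first pair and 0.23 in the second. GENCODE M21 names 23 pseudogenes after Rps12 and 14 after Rps19, so how reads of these copies were assigned makes their values less certain.

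Rps27, a zinc-binding protein, had 11.79 and 11.84 in Nrf2-HET libraries, against 11.65 and 11.61 in Nrf2-WT libraries. It rose by 0.19 ± 0.05 (limma adjusted p = 0.0052), and the groups did not overlap, as in 79.2% of all genes tested. Rps15a and Rps19 (in humans, RPS19 is mutated in Diamond-Blackfan anaemia) both rose by 0.20 ± 0.04 (limma adjusted p = 0.0021 and 0.00225). Rps3, at the entrance of the messenger RNA channel, Rps23, near the decoding centre, and Rps29 each rose by 0.19 (limma adjusted p between 0.00274 and 0.00427). Rps6, the main substrate of S6 kinase, rose by 0.13 ± 0.04 (limma adjusted p = 0.0284).

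Large subunit genes held the other named rises and all 4 called falls, of which Rplp0 was positive after quantile normalisation. Rpl22, a protein that binds RNA outside the ribosome as well, had 12.11 and 12.14 in Nrf2-HET, against 11.91 and 11.88 in Nrf2-WT. Its difference was 0.23 ± 0.05 (limma adjusted p = 0.000891). Rpl32 had 13.27 and 13.32 in Nrf2-HET, against 13.11 and 13.06 in Nrf2-WT, and rose by 0.21 ± 0.05 (limma adjusted p = 0.00179). In both genes the lowest Nrf2-HET library lay above the highest Nrf2-WT library, as in 41.1% of all genes tested. The 20 called rises after the 10 largest ran between 0.12 and 0.18.

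The largest difference in either direction was the fall of Rpl41, which encodes a very short protein from a coding sequence of 75 bases, the shortest of the members. It had 13.01 and 13.02 in the Nrf2-HET libraries, against 13.34 and 13.32 in the Nrf2-WT libraries. In normalised counts this was 8002 and 8079 in Nrf2-HET, against 10110 and 10010 in Nrf2-WT. The difference was -0.31 ± 0.04 (limma adjusted p = 3.34e-05), with -0.33 in the first pair and -0.30 in the second. Rpl41 thus went against the direction of most members, by more than the largest rise among them.

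Rpl7, a large subunit protein, had 13.45 and 13.47 in Nrf2-HET, against 13.61 and 13.60 in Nrf2-WT. It fell by 0.15 ± 0.04 (limma adjusted p = 0.0125), and was not called without the mean-variance trend (limma adjusted p = 0.0585). Rpl7l1, its paralog, had 10.19 and 10.35 in Nrf2-HET, against 10.57 and 10.41 in Nrf2-WT, a difference of -0.22 ± 0.07 (limma adjusted p = 0.0158). The first pair differed by -0.38 and the second by -0.06, and without replicate 1 of either genotype Rpl7l1 was no longer called (-0.14, limma adjusted p = 0.0525 without Nrf2-HET replicate 1 and 0.0562 without Nrf2-WT replicate 1), nor without the replicate block (limma adjusted p = 0.122). Rplp0, the base of the ribosomal stalk, had 15.02 and 15.02 in Nrf2-HET, against 15.15 and 15.15 in Nrf2-WT, and fell by 0.12 ± 0.04 (limma adjusted p = 0.0332), but after quantile normalisation its difference turned to 0.03 and was not called. Without the mean-variance trend it was not called either (limma adjusted p = 0.106). Rplp0 is a common reference transcript in quantitative PCR.

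**Figure D1:**
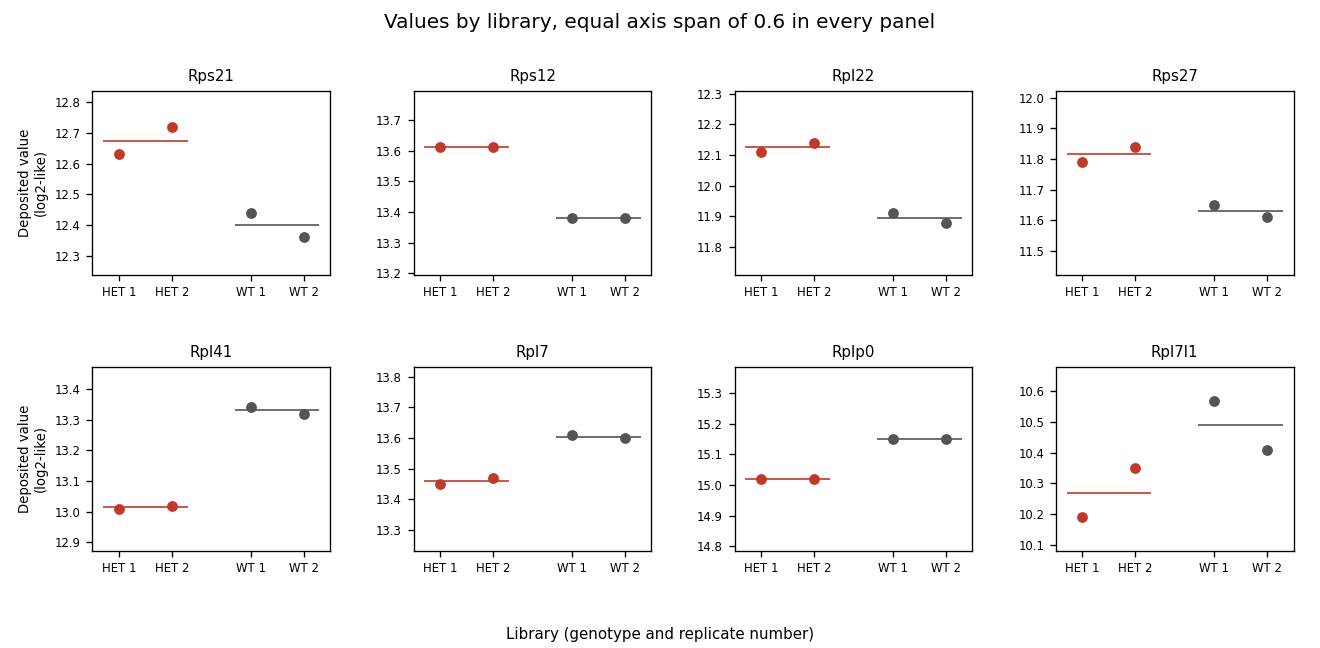
Deposited log2-like value (y axis, span of 0.6 in every panel) in each library (x axis) for 4 genes called higher (top) and 4 called lower (bottom; Rplp0 was positive after quantile normalisation) in Nrf2-HET; points are libraries and lines are group means. The groups did not overlap in any of the 8 genes, as in 79.2% of all genes tested. Rpl7l1 had the widest spread within a group, with 10.19 and 10.35 in Nrf2-HET and 10.57 and 10.41 in Nrf2-WT.

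Genes of the stalk, which recruits translation factors, went in different directions. Rplp1 rose by 0.16 ± 0.04 (limma adjusted p = 0.00855) and Rpl12, at the stalk base, by 0.17 ± 0.04 (limma adjusted p = 0.00573). Rplp2, the partner of Rplp1, had 12.93 and 12.94 in Nrf2-HET, against 12.94 and 12.93 in Nrf2-WT, a difference of 0.00 ± 0.04 (limma adjusted p = 0.998). Of 4 stalk genes, 2 were called higher and 1 lower (Rplp0, whose sign turned under quantile normalisation). The group is small, and over all genes tested 21.5% were called higher and 18.9% lower.

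Other structural groups of the large subunit held no called fall, and only the peptide exit tunnel and its rim held called rises. Rpl5 and Rpl11, which bind 5S RNA and restrain MDM2 when ribosome assembly fails, each differed by 0.05 ± 0.04 and were not called (limma adjusted p = 0.376 and 0.348). Of 3 genes whose proteins line the peptide exit tunnel, Rpl17 rose by 0.15 ± 0.04 (limma adjusted p = 0.0153), and Rpl4 and Rpl39 both had a difference of 0.10 and were not called. Around the rim of the tunnel 2 of 6 genes were called higher, Rpl22 and Rpl26 (33.3%, in a group of few genes, against 21.5% of all genes tested). Called falls made up 18.9% of all genes tested, and these groups are small.

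The groups by position in the small subunit held only 3 or 4 genes each. Over all genes tested, 21.5% were called higher and 18.9% lower, and groups this small cannot be compared with those shares. None of 4 genes at the messenger RNA exit site was called, and their differences ran from 0.01 to 0.10. Rpsa, the laminin receptor precursor and 1 of these genes, had 14.73 and 14.75 in Nrf2-HET, against 14.69 and 14.68 in Nrf2-WT (difference 0.05 ± 0.04, limma adjusted p = 0.361). At the messenger RNA entry channel Rps3 rose, and Rps2 and Rps9 both had -0.04 and were not called. In the beak Rps12 and Rps27a were called higher, and Rps10 had 0.03 and was not called.

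**Figure D2:**
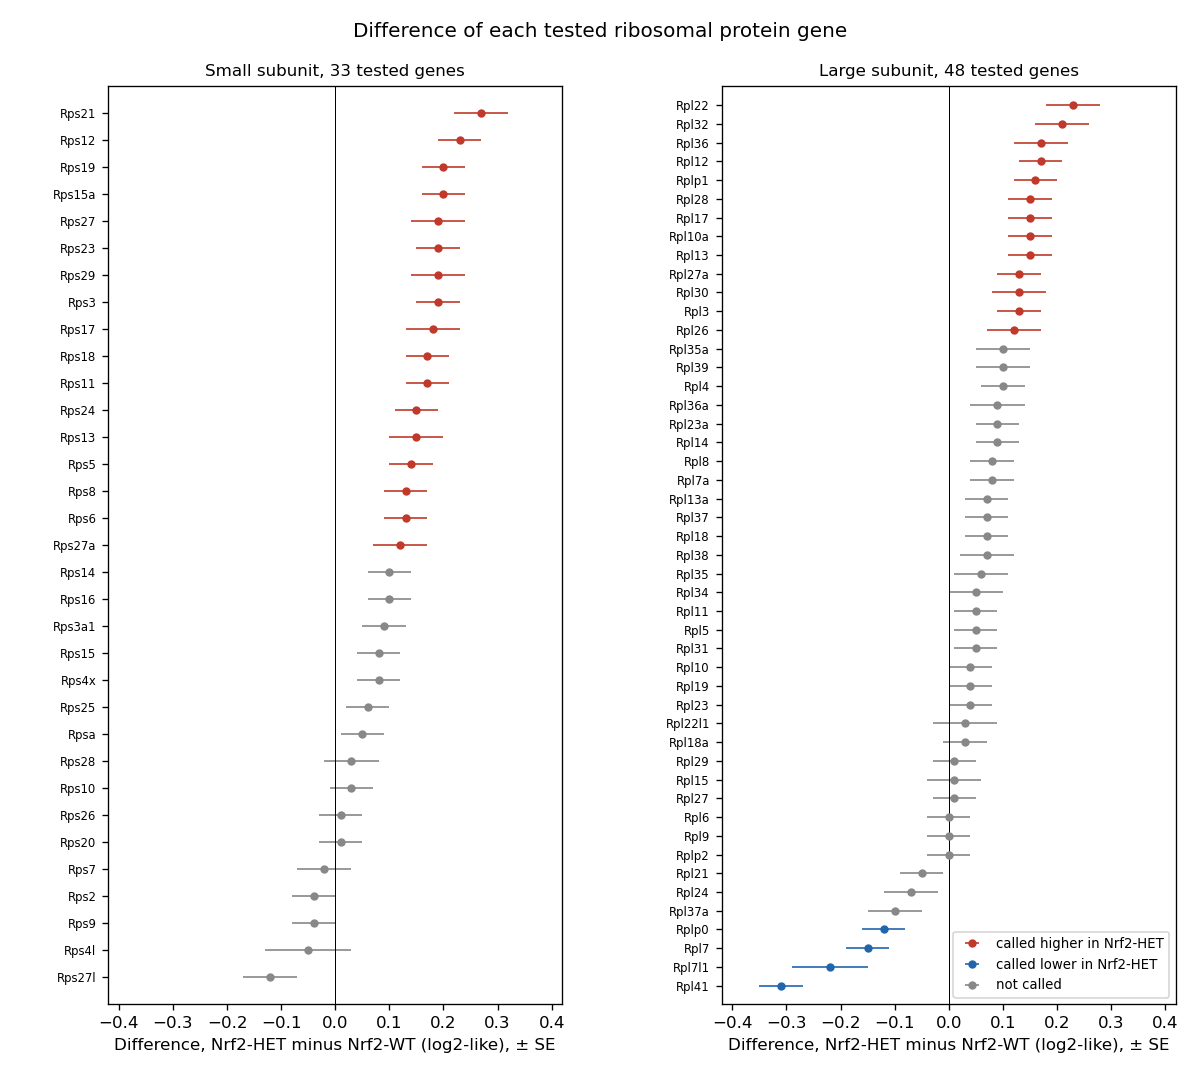
Difference of each tested gene, Nrf2-HET minus Nrf2-WT (x axis, log2-like scale, bars ± SE, n = 2 pairs), ordered within the small subunit (left, 33 genes) and the large subunit (right, 48 genes). Called rises reach 0.27 at Rps21, and the 4 called falls, down to -0.31 at Rpl41, are all in the large subunit, where Rplp0 was positive after quantile normalisation.

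Small subunit genes had a larger mean difference than large subunit genes in both replicate pairs. In replicate 1 the mean difference was 0.030 over 48 large subunit genes and 0.089 over 33 small subunit genes. In replicate 2 it was 0.075 over the large subunit genes and 0.117 over the small subunit genes. Large minus small was therefore -0.059 in the first pair and -0.042 in the second. No test was made of this gap, since genes are not replicates and 2 pairs allow no exact two-sided p below 0.5. By counts, 13 of 48 large subunit genes (27.1%) were called higher and 4 (8.33%) lower. Of 33 small subunit genes, 17 (51.5%) were called higher and 0 lower, beside the 21.5% and 18.9% of all genes tested. Without the mean-variance trend the called rises were 5 in the large (10.4%) and 11 in the small subunit (33.3%), against 19.7% of all genes. The share of genes with a positive difference did not show the gap, with 41 of 48 large subunit genes (85.4%) and 28 of 33 small subunit genes (84.8%). Without the replicate block limma called 55 members, 48 higher and 7 lower, where it called 55.3% of all genes, 28.8% higher and 26.5% lower.

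Most members had the same sign in both pairs. The difference was positive in both for 59 of 81 genes (72.8%, against 41.1% of all genes tested) and negative in both for 9 (11.1%, against 38.1%). These are also the genes whose groups do not overlap, because each gene's deposited values had been centred by replicate number (79.2% of all genes tested have the same sign in both pairs). The other 13 genes had opposite signs. The replicate 2 difference was the larger in 64 of 81 members, against 54.2% of all genes tested. Among the other 290 genes above the members' lower-quartile level it was the larger in 73.1%. A larger replicate 2 difference was therefore not particular to the members. Across members the 2 pairs ranked the genes alike (Spearman rho 0.79, 81 genes that share the same 4 libraries).

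**Figure D3:**
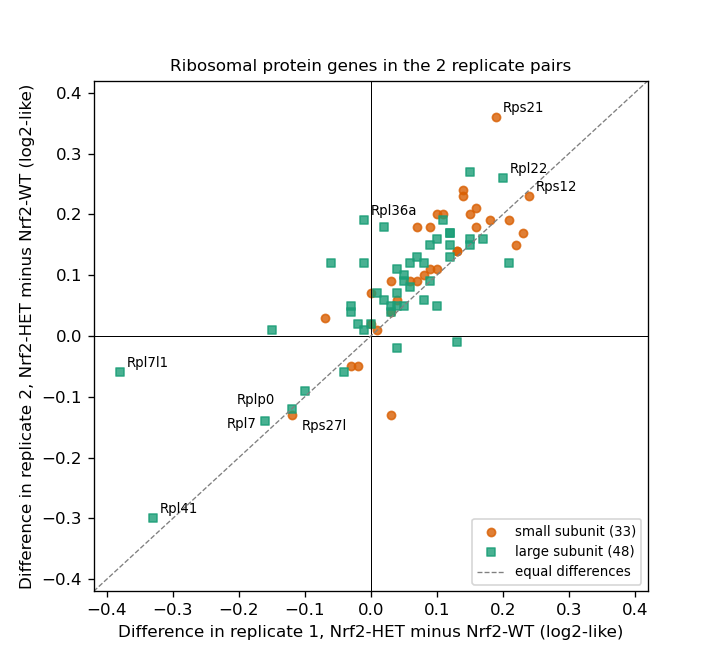
Difference in replicate 2 (y axis) against replicate 1 (x axis), Nrf2-HET minus Nrf2-WT on the log2-like scale, for 33 small subunit genes (circles) and 48 large subunit genes (squares); the dashed line marks equal differences. Most points lie where both differences are positive and above the dashed line, and Rpl41 lies alone at -0.33 and -0.30.

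Paralogs did not follow their partners in every case. Rps27l, a paralog of Rps27 that responds to p53, had 11.12 and 11.11 in Nrf2-HET, against 11.24 and 11.24 in Nrf2-WT. Both Nrf2-HET values were below both Nrf2-WT values, as in 38.1% of all genes tested (difference -0.12 ± 0.05). Rps27l just missed the threshold (limma adjusted p = 0.0513). Under 8 of 11 alternatives Rps27l was called lower. Rpl22l1, the paralog of Rpl22, had 10.83 and 10.92 in Nrf2-HET, against 10.89 and 10.79 in Nrf2-WT, and its groups overlapped (difference 0.03 ± 0.06, limma adjusted p = 0.67). The differences between paralogs were not tested.

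Rpl36al, which lies outside the naming rule, rose by 0.19 ± 0.05 (limma adjusted p = 0.00663), and its paralog Rpl36a had 0.09 ± 0.05 and was not called (limma adjusted p = 0.181). Rpl3 rose by 0.13 ± 0.04 (limma adjusted p = 0.0288). Its muscle paralog Rpl3l, and the paralogs Rpl10l and Rpl39l, which are best known from testis, stood at the floor of the table in all 4 libraries. Rpl32l stood there too, and those 4 were the members not tested. GENCODE M21 lists Rpl32l and Rps4l as pseudogenes, and Rps4l was the lowest tested member, with 8.11 and 8.03 in Nrf2-HET, against 8.08 and 8.16 in Nrf2-WT.

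None of the 4 members on the X chromosome, a group of few genes, was called, against 40.4% of all genes tested. Their differences were 0.04 for Rpl10, 0.08 for Rps4x, 0.09 for Rpl36a and 0.10 for Rpl39. Xist, the RNA that coats the inactive X chromosome, differed widely between the groups, with 7.30 and 7.12 in Nrf2-HET, against 11.99 and 12.17 in Nrf2-WT. Ddx3y, on the Y chromosome, was detected in all 4 libraries, with 10.05 and 10.19 in Nrf2-HET, against 9.65 and 9.51 in Nrf2-WT. Whatever underlies these sex-linked values cannot be told apart from the genotype labels in 4 libraries.

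The label of cultured oesophageal cells was set against keratinocyte markers, all 6 of which were well above the floor, with summed normalised counts of 120000 and 124000 in Nrf2-HET, against 131000 and 126000 in Nrf2-WT. Of these, 3 were called lower (Krt14, Krt15 and Epcam). Mesenchymal markers summed to 120 and 129 in Nrf2-HET, against 417 and 422 in Nrf2-WT, with Col1a1 called lower, 7 of 8 too low to test and Lum at 0. The muscle list summed to 275 and 261 in Nrf2-HET, against 870 and 901 in Nrf2-WT. Acta2, called lower, was the only muscle gene of 4 high enough to test. Endothelial markers, all 3 too low to test, summed to between 10.6 and 11.1 in Nrf2-HET, against at least 17.0 in both Nrf2-WT libraries. The immune list summed to 370 and 406 in Nrf2-HET, against 184 and 164 in Nrf2-WT. Cd68, called higher, was the only immune gene of 4 high enough to test, and Ptprc and Cd3e were at 0. The part of these lists in the ribosomal protein differences was not tested. Nfe2l2 itself was not called (-0.10 ± 0.05, limma adjusted p = 0.154), and a substitution need not change its level. Nqo1, a quinone reductase and NRF2 target, had 10.88 and 10.87 in Nrf2-HET, against 8.64 and 8.65 in Nrf2-WT.

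Genes that build ribosomes had larger rises than the genes of the ribosome's own proteins. Of 85 tested ribosome biogenesis genes, 52 were called higher (61.2%) and 0 lower, with a median difference of 0.20. Of all genes tested, 21.5% were called higher and 18.9% lower. Gnl3, a nucleolar GTP-binding protein, had 10.81 and 10.91 in Nrf2-HET, against 10.06 and 9.96 in Nrf2-WT, and rose by 0.85 ± 0.06 (limma adjusted p = 1.76e-08). Wdr43, of the small subunit processome, rose by 0.55 ± 0.06 (limma adjusted p = 1.81e-06). These were the largest rises of the list, and both exceed every rise among the ribosomal protein genes. The gap between the 2 lists was not tested.

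RNA polymerase I genes, which transcribe ribosomal RNA, had 6 called higher (42.9%, against 21.5% of all genes tested) and 0 lower of 14. Polr1b rose by 0.31 ± 0.06 and Polr1a by 0.26 ± 0.06 (limma adjusted p = 0.000808 and 0.00154). Chaperones and importins that escort ribosomal proteins had 8 called higher and 1 lower of 16, with a median of 0.15. For both lists, the shares over all genes tested were 21.5% called higher and 18.9% called lower. Ipo7, an importin, rose by 0.42 ± 0.05 (limma adjusted p = 6.49e-06) and Ltv1, a small subunit assembly factor, by 0.35 ± 0.05 (limma adjusted p = 9.76e-05). Heatr3, which carries Rpl5, fell by 0.19 ± 0.06 (limma adjusted p = 0.0168).

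Among initiation factors 13 were called higher (35.1%) and 4 lower (10.8%) of 37, with a median of 0.04. Of all genes tested, 21.5% were called higher and 18.9% lower. Eif1a and Eif1, which act in start codon selection, rose by 0.51 ± 0.06 and 0.44 ± 0.05 (limma adjusted p = 2.57e-06 and 4.17e-06). Eif3l and Eif2s3x fell by 0.24 and 0.18 (limma adjusted p = 0.00107 and 0.00923). Translation factors and other genes known for a 5′ pyrimidine tract had 6 called higher (35.3%) and 1 lower (5.88%) of 17. Eif3a rose by 0.28 ± 0.05 and Eif4b by 0.27 ± 0.05 (limma adjusted p = 0.000144 and 0.000352), and Vim, an intermediate filament gene also counted in that list, fell by 1.62 ± 0.07. Of ribosomal protein genes outside the naming rule, Rack1, a scaffold on the small subunit, rose by 0.15 ± 0.04 (limma adjusted p = 0.0109), and Fau had a difference of 0.01 and was not called.

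**Figure D4:**
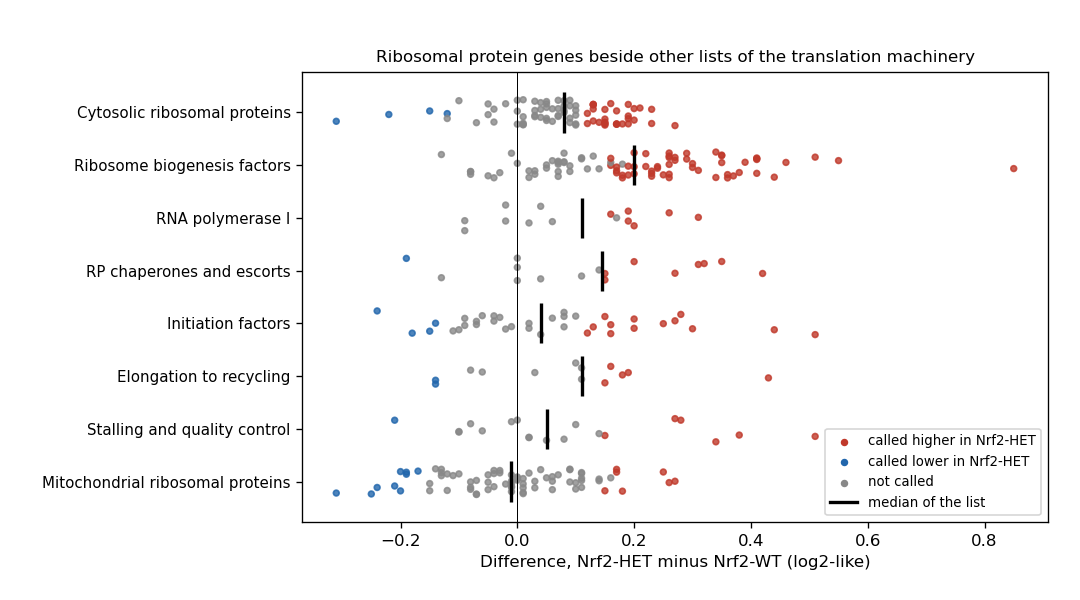
Difference of each tested gene, Nrf2-HET minus Nrf2-WT (x axis, log2-like scale), for 8 lists of the translation machinery (rows), with the median of each list as a bar. The ribosome biogenesis median of 0.20 lies right of the ribosomal protein median of 0.08, and the mitochondrial ribosomal protein median lies at -0.01.

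Promoter and start sequences were compared within the members. RefSeq windows from 250 bases before to 50 bases after the start were found for 64 of 85 members, and for 27025 genes in all. A gene counted where any of its listed starts held the letters, and so Rpl22 and Rps19 count among members with a tract. The pyrimidine tract, on the sense strand, stood at the start of 39 of the 64 members (60.9%), against 32.6% of all genes. Of tested members with the tract, 14 were called higher (40.0%) and 0 lower of 35, with a median difference of 0.09. Of those without it, 4 were called higher (16.0%) and 3 lower of 25, with a median of 0.05. Of all genes tested, 21.5% were called higher and 18.9% lower. The 3 falls without a tract are Rpl41, Rpl7l1 and Rplp0, whose starts are shown above (Rplp0 being positive after quantile normalisation), and Rpl7 was among the members without a window.

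Rps27 and Rps27l, whose values went opposite ways, both hold a tract, and the paralog's window is shown for comparison with that of Rps27 above.
Rps27l (chr9:66946071-66946100, plus strand): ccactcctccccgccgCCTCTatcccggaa
A match of letters is a description and does not show a working element.

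NRF2 binds the antioxidant response element, and its core TGACNNNGC was searched on both strands. It was present in 13 of 64 member windows (20.3%), against 14.0% of all genes. Members with the core had 3 called higher and 1 lower of 12 and a median of 0.07, and those without it 15 called higher and 2 lower of 48 and the same median of 0.07. A gene called higher and a gene called lower are shown with the core in capitals, Rplp0 being positive after quantile normalisation and Rps23 with the core on the opposite strand.
Rps23 (chr13:90922930-90922968, plus strand): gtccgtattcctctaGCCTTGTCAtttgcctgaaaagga
Rplp0 (chr5:115559252-115559290, plus strand): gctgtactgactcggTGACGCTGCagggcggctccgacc
The core begins 177 bases before the RefSeq start of Rps23 and 200 bases before that of Rplp0. The RefSeq start of Rps23 lies 164 bases from its GENCODE start, so that distance is less sure.

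The ETS core CCGGAAG, which GABP and related factors bind, had the largest ratio between members and all genes among the patterns searched. On either strand it was in 26 of 64 member windows (40.6%), against 9.93% of all genes. Members with it had 5 called higher (20.0%, against 21.5% of all genes tested) and 1 lower of 25 and a median of 0.05. Those without it had 13 called higher (37.1%) and 2 lower of 35 and a median of 0.09. The share called lower over all genes tested was 18.9%. The strongest rise and the strongest fall both carry it, and their promoters are shown from 150 bases before the start to 15 bases from it on, with the core in capitals.
Rps21 (chr2:180257229-180257393, plus strand): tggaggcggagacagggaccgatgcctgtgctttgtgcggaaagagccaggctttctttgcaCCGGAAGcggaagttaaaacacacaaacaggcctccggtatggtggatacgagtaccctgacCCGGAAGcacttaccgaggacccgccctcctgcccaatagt
Rpl41 (chr10:128549154-128549318, minus strand): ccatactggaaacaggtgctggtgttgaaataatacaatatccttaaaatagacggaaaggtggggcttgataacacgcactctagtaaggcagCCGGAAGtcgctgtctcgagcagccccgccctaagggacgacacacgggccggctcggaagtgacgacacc

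The E-box CACGTG, which MYC and MAX bind, was in 9.38% of member windows, against 8.09% of all genes. The YY1 core AAGATGGC was in 9.38%, against 3.19%, and the TATA box TATAAA in 12.5%, against 15.7%, all on both strands. No searched motif contains another.

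Level and length were set against the differences. Across 81 members the Spearman rho between the difference and the mean deposited value was 0.01, and across the 80 with a coding length it was -0.17. The members' coding sequences ran from 75 to 1257 bases, with a median of 454.5. The median was 435 among the 30 genes called higher and 774 among the 4 called lower. GENCODE M21 names 293 pseudogenes after 61 of the members, and the sources do not say how reads shared with them were assigned. Strand use in counting is also not given.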

How the data were processed

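Poly(A) RNA of 4 libraries was measured, 2 Nrf2-HET and 2 Nrf2-WT, grouped by sample title. The deposited matrix holds variance-stabilised log2 values made by the authors for 24444 genes. Tools listed in the submitters' processing notes are Salmon 0.11.3, STAR 2.5.2b, DESeq2 and DESeq 1.22.2, and the build listed is mm9, with no roles. No source used here gives the strand setting or annotation. Within each gene, the Nrf2-HET and Nrf2-WT values of replicate 1 and of replicate 2 had equal sums to within 1.31e-13, so the deposited values had been centred on the replicate number. The numbers pair the libraries for this reason.

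limma 3.58.1 (R 4.3.3) was fitted to the 10857 genes lying at least 1 above the lowest value in at least 2 libraries, with genotype, a replicate block (1 residual degree of freedom) and a mean-variance trend. The prior degrees of freedom were 14.6. The two-sided moderated test was adjusted by Benjamini-Hochberg over all genes tested, and calls were made at a value under 0.05. Normalised counts were computed by inverting the stabilisation from the floor of 6.98 that 8120 genes share in all 4 libraries. They are approximate, and no source used here gives the raw depth. The steps were tested on simulated data. That check required recovery only of differences larger than any among the members, and set no limit on false calls.

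Members followed a naming rule. Members, lists and tests were chosen with earlier results of these data known. The rule for named members took up to 10 called members per direction, by size of difference, the stalk genes and Rpsa, paralog pairs and X-linked members, and in each other list up to 2 called genes per direction. Genes of the structural groups that fall outside it were named after their values were seen. Promoter windows were RefSeq's on GRCm38.p6, which differs from the authors' build. Alternatives were another scaling, filter, variance model or block, and leaving out each library.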

Additional observations from a re-analysis of the deposited data

How the results depend on the processing

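Calls rest on a spread pooled over genes, since only 2 pairs exist and the deposited values were already centred on them. With no filter on low values, limma called 0 genes of any kind. The genes added included 8120 without spread, and the cause was not tested. At an unadjusted p under 0.05 it had 3942 genes and 16 members, and the smallest adjusted p of a member was 0.218. Without the replicate block, which ignores the centring, 6004 genes, 55 members (48 higher, 7 lower), 25 large subunit genes higher, 2 small subunit genes lower and 177 genes of the other lists were called, against 4388, 34 (30 and 4), 13, 0 and 124 with it. All 30 members called higher kept that call. Without the mean-variance trend, 18 members were called, 16 higher (19.8%, against 19.7% of all genes) and 2 lower (2.47%, against 18.1%). These were 5 large (10.4%) and 11 small subunit genes (33.3%) higher, and 2 large ones (4.17%) lower. Quantile normalisation gave 7 members called lower, of which 6 were large and 1 small subunit genes, and a large subunit median of 0.032, against 0.07 with the values as deposited and all libraries. That median was 0.052 under median centring and 0.059 to 0.077 with a library left out. Median centring and the stricter filter each gave 1 small subunit gene called lower. Called higher, 27 of 30 members kept the call under median centring and 29 under quantile normalisation.

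Each library was also left out in turn, without the replicate block and from values already centred with that library. The lone sample was assumed to vary like the other group. The members' median difference was 0.087 without replicate 1 of either genotype and 0.076 without replicate 2 of either genotype. Because of the centring, leaving out either genotype of a replicate number gives the same differences, so these fits are not independent checks. The share of counts differed by 0.157 to 0.210 percentage points (0.184 with all libraries). In an alternative chosen after seeing the data, large minus small was -0.055 without the pseudogenes Rps4l and Rpl32l, and -0.058 without members with close paralogs by name, against -0.050.

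Rplp0 turned to 0.031 under quantile normalisation. Rplp2, at 0.00, turned to -0.018 under median centring, -0.044 under quantile normalisation and lay between -0.007 and 0.007 with a library left out (negative without replicate 2 of either genotype). Rpl22l1 lay between -0.013 and 0.079 with a library left out, negative again without replicate 2 of either genotype. Rpl7, Rplp0 and Rpl3 were not called without the trend (adjusted p = 0.0585, 0.106 and 0.0997), nor Rpl7l1 without the block (adjusted p = 0.122). For these changes the cause was not tested.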

Other observations

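Mitochondrial ribosomal proteins, which form a separate ribosome for the mitochondrial genome, were called in both directions at similar rates. Of 78 tested, 7 were called higher (8.97%) and 9 lower (11.5%), with a median difference of -0.01. Of all genes tested, 21.5% were called higher and 18.9% lower. Mrpl57 rose by 0.27 ± 0.06 and Mrpl48 by 0.26 ± 0.07 (limma adjusted p = 0.00177 and 0.0076), and Mrpl49 had 9.43 and 9.46 in Nrf2-HET, against 9.77 and 9.74 in Nrf2-WT, a fall of 0.31 (-0.31 ± 0.06, limma adjusted p = 0.000692). Without the replicate block 18 were called in each direction, and without replicate 2 of either genotype 12 were called higher and 16 lower.

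Regulators of ribosomal protein expression and translation had 8 called higher (33.3%) and 1 lower (4.17%) of 24, against 21.5% and 18.9% of all genes tested. Myc had 11.53 and 11.72 in Nrf2-HET, against 10.73 and 10.54 in Nrf2-WT, and rose by 0.99 ± 0.07 (limma adjusted p = 1.88e-08). Larp4, which binds messenger RNA tails, rose by 0.35 ± 0.05 (limma adjusted p = 6.17e-05), and Larp1 had 0.05 ± 0.04 and was not called. Rps6kb1, an S6 kinase gene, fell by 0.15 ± 0.05 (limma adjusted p = 0.0419). Among genes of ribosome stalling and quality control, 6 were called higher (31.6%) and 1 lower (5.26%) of 19. Gtpbp2, a ribosome rescue factor, rose by 0.51 ± 0.06 and Ascc3, a helicase that splits collided ribosomes, by 0.38 ± 0.05 (limma adjusted p = 3.62e-06 and 4.82e-05). Rnf10, a ubiquitin ligase of small subunit proteins, fell by 0.21 ± 0.05 (limma adjusted p = 0.00183).

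Elongation, termination and recycling factors had 5 called higher (38.5%) and 2 lower (15.4%) of 13, against 21.5% and 18.9% of all genes tested. Eef1e1, counted in this list but not itself an elongation factor despite its name, rose by 0.43 ± 0.06 (limma adjusted p = 7.19e-05). Eef2k, the kinase of elongation factor 2, rose by 0.19 ± 0.06 (limma adjusted p = 0.0148). Gspt1 and Eif5a both fell by 0.14 (limma adjusted p = 0.0294 and 0.0185). Of 7 ribosomal protein pseudogenes named with -ps in the table, 1 was high enough to test, Rpl34-ps1, with a difference of 0.05 that was not called.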
